A study of Syringa oblata with 2 samples.

Results

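The ribosome and the transcription machinery of plastids were followed in leaves of *Syringa oblata*, a lilac, through 137 of the 73159 unigenes of the deposited table. A unigene is 1 assembled transcript that stands for a gene. Members were taken by the text of their best Swiss-Prot match (30S or 50S ribosomal protein, sigma factor sig, plastid transcriptionally active, PAP fibrillin, or a chloroplastic elongation factor). Of 191 unigenes with such a text, 54 were dropped because their best Nr match was rice (*Oryza*), and none matched a bacterium. The 137 members lay in 118 components of the assembly. They comprised 44 proteins of the 30S subunit, 71 of the 50S subunit, 2 elongation factors, 15 sigma factors and 5 plastid transcriptionally active (PTAC) proteins, and the PAP fibrillin text found 0.

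Trees under 40% to 50% shading (Z1) were compared with trees under natural growth conditions (Z0). Each condition had 2 libraries of leaf RNA, Z1-1 and Z1-2 against Z0-1 and Z0-2. The study's methods describe 2 biological repeats and 5 trees per light group. The labels hold 1 sample for each condition, with genomic DNA as the molecule, so the p-values measure the spread between these libraries only. The question put by the design is how leaves differ between the light intensities.

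Plastids keep a ribosome of bacterial type, with a small 30S and a large 50S subunit, which makes the plastid-encoded proteins of photosynthesis. Genes for its proteins are divided between the plastid genome and the nucleus, and the products of the nuclear genes are made in the cytosol and imported. Plastid genes are read by a bacterial-type RNA polymerase, whose promoter choice is set by nuclear-encoded sigma factors, together with a phage-type polymerase. Flowering plants also have a mitochondrial ribosome with proteins of the same bacterial families.

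The name of the group held for part of its members. Of the 115 ribosomal proteins, 50 were chloroplastic by name and belong to nuclear genes, 21 have genes in the plastid genome, and 44 were not chloroplastic by name, most of them being matched to bacterial entries. Among these 44, 29 carried a mitochondrial wording in the Nr match, the GO terms or the protein name, 6 had an Nr match called chloroplastic, 3 had both and 12 had neither. These 44 are therefore called ribosomal proteins not named chloroplastic, and are kept apart from the chloroplast ribosome below. The 2 S16-2 unigenes counted as nuclear chloroplastic are named for chloroplast and mitochondrion alike.

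Values are TPM, a unit of transcript abundance that is corrected for length and whose values sum to nearly the same total in every library. They keep no read counts, so the depth behind a value is unknown. Leaf markers were high everywhere. The 22 chlorophyll a-b binding unigenes summed to 7863 and 8118 TPM in Z1 and to 7986 and 8058 TPM in Z0. The 5 wood markers were at 11.04 and 14.29 TPM in Z1 and 36.70 and 30.35 TPM in Z0, and the 5 flower markers at 13.96 and 13.53 TPM in Z1 and 6.86 and 5.90 TPM in Z0. Unigenes whose Swiss-Prot match is a carlavirus (RNA viruses of plants) made up 0.147% and 0.0505% of the TPM in Z1 against 22.8% and 13.9% in Z0. These 3 differences followed the light groups, and their part in the results was not tested. Z1-2 stood apart by itself, with 32956 TPM in rice-matched unigenes against 2436 to 2955 TPM in the other 3 libraries, and with 3310 unigenes at 0 against 8380 to 9896. For a single value 2 against 2 libraries allow no exact p below 0.333.

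The main result was a set of small differences in the same direction. In both Z1 libraries, 34 of the 50 nuclear-gene chloroplastic ribosomal proteins were below both Z0 libraries, 6 were above both, and 10 overlapped. Over all 73159 unigenes, 18.2% were below and 41.5% above in this sense. The summed level of the 50 was 3824 and 5087 TPM in Z1 and 5937 and 5881 TPM in Z0, a mean of 4456 ± 893 in Z1 against 5909 ± 39.7 in Z0 (SD, n = 2 each). The ratio of Z1 over Z0 was 0.754 for the mean, 0.647 for Z1-1 alone and 0.861 for Z1-2 alone. Both Z1 sums were thus below both Z0 sums, and the gap between the Z1 libraries was wider than that between Z1-2 and either Z0 library. Fewer cells of a type and less RNA per cell cannot be told apart in whole leaves.

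None of the 50 was called lower one by one. A call required an adjusted p under 0.05 from limma, with Benjamini-Hochberg adjustment over all unigenes, and a fold change over 2. By this rule 1 of 137 members was called higher and 0 lower, against a background of 3.2% higher and 1.8% lower over all unigenes. With an unadjusted limma p under 0.05 at the same fold, 5 members were higher and 6 lower, against 16.5% and 7.71% of all unigenes. The median log2 fold change of the 137 was -0.029, beside 0.45 over all unigenes. The members are described further by their levels in each library.

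**Figure D1:**
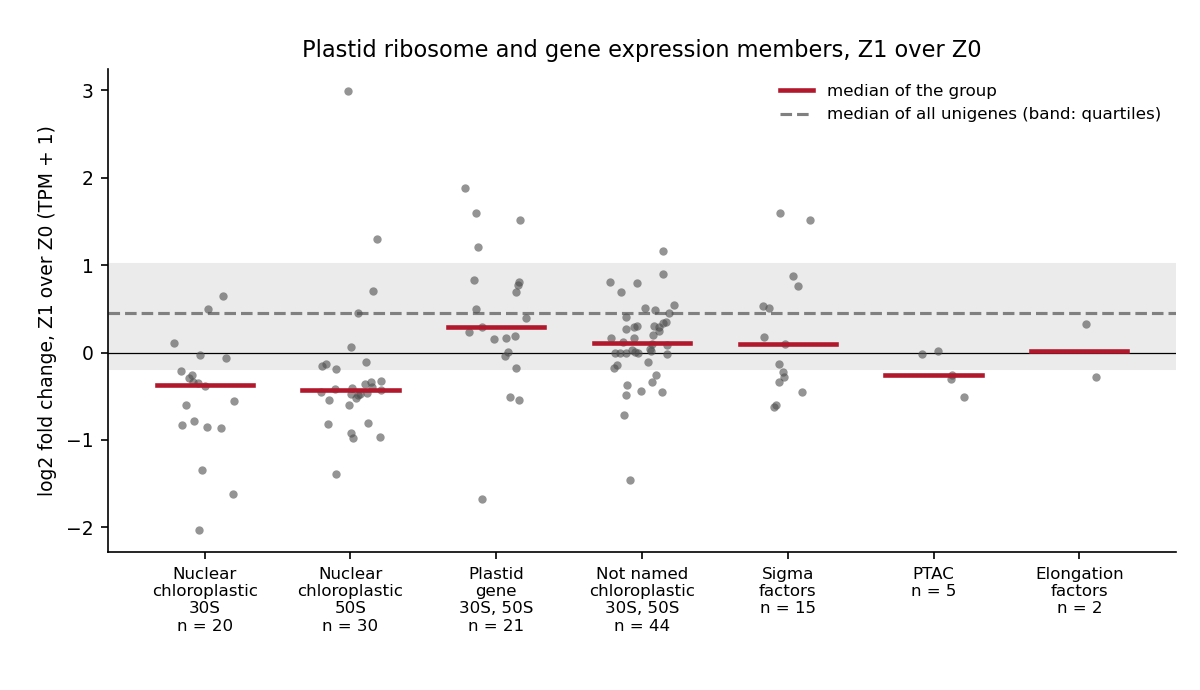
The log2 fold change of every member on the log2(TPM + 1) scale, Z1 over Z0, is plotted by class, with the median of each class as a red bar, and the median and quartiles of all unigenes as a dashed line and a grey band. Both nuclear chloroplastic classes have their medians below 0 (-0.37 for 30S and -0.43 for 50S), while the plastid-gene class (0.29) and the class not named chloroplastic (0.11) have theirs above 0 and below the 0.45 of all unigenes.

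The classes differed in their median log2 fold change. It was -0.41 over the 50 nuclear chloroplastic proteins, 0.29 over the 21 plastid-gene proteins and 0.11 over the 44 not named chloroplastic, again beside 0.45 over all unigenes. It was 0.033 over the 1856 other unigenes named chloroplastic, of which 25.65% were below both Z0 libraries in both Z1 libraries and 33.03% above. The 852 cytosolic ribosomal proteins, which form the ribosome outside the organelles, had a median of -0.093, with 34.7% below and 15.3% above. Most of these 852 were low, with a median of 2.31 for their mean TPM. Their sum was 15348 and 14189 TPM in Z1 and 13344 and 14229 TPM in Z0, which overlapped, with a ratio of Z1 over Z0 of 1.07. The 24 unigenes named as mitochondrial ribosomal proteins in other wording had a median of 0.049, with 6 below and 6 above. Rescaling moves all of these together. With TMM scaling the median of all unigenes went to 0.18, and the class medians were then -0.79, 0.038 and -0.25 in the order given first. The sign of the median of the class not named chloroplastic thus flipped with the scaling. Relative to the median of all unigenes, that class stood at -0.34 as deposited and -0.43 with TMM scaling, and the nuclear chloroplastic class at -0.87 and -0.98.

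**Figure D2:**
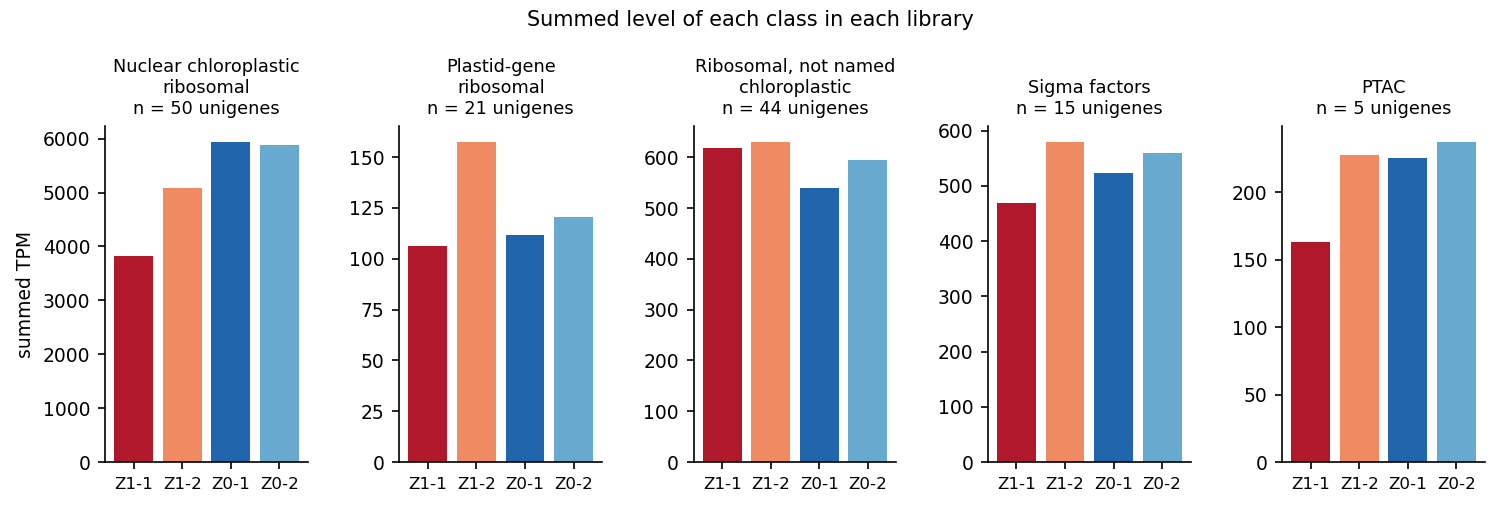
Bars give the summed TPM of 5 classes of members in each of the 4 libraries, with a separate axis from 0 for each class. Only in the first panel, the 50 nuclear chloroplastic ribosomal proteins, are both Z1 bars (3824 and 5087 TPM) below both Z0 bars (5937 and 5881 TPM). This holds only for the TPM as deposited. The TMM factors were 1.16 and 1.12 in Z1 and 0.833 and 0.921 in Z0. Dividing by them lowers the Z1 bars against the Z0 bars in every panel. Both Z1 bars would then also lie below both Z0 bars for sigma factors, PTAC and the class not named chloroplastic.

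The nuclear chloroplastic proteins were next split by level. Of the 41 with a mean of at least 10 TPM, 31 were below both Z0 libraries in both Z1 libraries, 2 above and 8 overlapped, while 14.8% of all unigenes at that level were below and 53.1% above. Among the 31, the ratio of Z1 over Z0 ran between 0.305 and 0.931 with a median of 0.6997. Of the 9 with less than 10 TPM, 3 were below and 4 above, beside 18.2% and 41.5% of all unigenes at any level. All 41 of the more abundant proteins were lower in Z1-1 than in Z1-2, as were 4550 of the 11601 unigenes at that level. Over the 50, 44 were below both Z0 libraries in Z1-1 and 34 in Z1-2, beside 20941 and 17145 of all 73159 unigenes. Z1-1 was also the lower of the Z1 libraries in the sum of the other unigenes named chloroplastic, with 106586 TPM against 125247 TPM in Z1-2 and 117912 and 120741 TPM in Z0.

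The small subunit binds the messenger RNA and decodes it. Its 20 nuclear chloroplastic unigenes summed to 1199 and 1673 TPM in Z1 and to 1896 and 1971 TPM in Z0. Of the 20, 13 were below without overlap and 3 above, beside 18.2% and 41.5% of all unigenes. The 4 unigenes of highest mean level were S21, S1, S9 and S13. S21, which lies near the site where bacterial ribosomes pair with the message, had 174 and 201 TPM in Z1 and 205 and 244 TPM in Z0. S1, an RNA-binding protein that helps to load the message, had 134 and 176 TPM in Z1 and 192 and 197 TPM in Z0. The Z1 libraries were below both Z0 libraries for these 2 proteins. S9, whose tail reaches the decoding centre, had 132 and 178 TPM in Z1 and 178 and 199 TPM in Z0, and S13, which sits at the head of the subunit and touches the 50S subunit, had 136 and 194 TPM in Z1 and 165 and 175 TPM in Z0. Both overlapped, S9 by less than 0.1 TPM.

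The largest differences of the small subunit, among members of at least 10 TPM, lay elsewhere. S31, a protein of plastid ribosomes also called PSRP4, had 38.7 and 81.8 TPM in Z1 and 149 and 140 TPM in Z0 in its more abundant unigene, DN33171_c1_g5 (log2 fold change -1.34, standard error 0.40, limma adjusted p = 0.114). PSRP3, another plastid-specific protein, had 3.63 and 7.64 TPM in Z1 and 18.2 and 18.8 TPM in Z0 in unigene DN28251_c0_g1 (-1.62, standard error 0.36, limma adjusted p = 0.0739). Neither passed the threshold. The other PSRP3 unigenes and S17 and S20 are named here after their values were seen. S20, an early binder of the ribosomal RNA in bacteria, had 92.1 and 147 TPM in Z1 and 196 and 206 TPM in Z0. S17, likewise an early RNA-binding protein, was lower without overlap in both of its unigenes, with summed levels of 68.1 and 86.3 TPM in Z1 and 142 and 139 TPM in Z0.

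The large subunit joins the amino acids. Its 30 nuclear chloroplastic unigenes summed to 2625 and 3414 TPM in Z1 and to 4041 and 3911 TPM in Z0. Of the 30, 21 were below without overlap and 3 above, beside 18.2% and 41.5% of all unigenes. L12, which forms the flexible stalk that recruits elongation factors and is present in several copies per ribosome, had the highest mean of all 137 members. It had 307 and 415 TPM in Z1 and 513 and 409 TPM in Z0, and its libraries overlapped. L27, which reaches into the catalytic centre, had 258 and 321 TPM in Z1 and 380 and 385 TPM in Z0 in its main unigene, DN27054_c1_g1. L1, the protein of the other stalk, had 162 and 190 TPM in Z1 and 267 and 266 TPM in Z0 in unigene DN36493_c0_g2. Both were lower in Z1 without overlap. L28, a small RNA-binding protein, had 168 and 249 TPM in Z1 and 224 and 231 TPM in Z0, with Z1-1 below and Z1-2 above both Z0 libraries.

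L13, one of the first proteins to join the assembling 50S subunit of bacteria, showed the lowest log2 fold change of the nuclear chloroplastic 50S proteins. Its unigene DN27065_c0_g4 had 25.00 and 34.31 TPM in Z1 and 74.2 and 82.5 TPM in Z0 (log2 fold change -1.39, standard error 0.24, limma adjusted p = 0.0524), just outside the threshold. Its unigene DN27065_c0_g1 had 56.1 and 87.3 TPM in Z1 and 138 and 140 TPM in Z0 (log2 fold change -0.98, standard error 0.28, limma adjusted p = 0.107). Leaving out the carlavirus-matched and rice-matched unigenes and rescaling brought DN27065_c0_g4 past the threshold (log2 fold change -1.66, limma adjusted p = 0.0335), together with 4 other members that were lower, among them both S17 unigenes and PSRP3 DN28251_c0_g1, and 1 more that was higher. Over all unigenes the same setting called 4.73% lower and 5.47% higher. L11, L18, L6 and L21 are named after their values were seen. L11, L18 and L6 had ratios of Z1 over Z0 of 0.516, 0.556 and 0.570 when unigenes of the same name were summed. L21 went the other way, with 91.7 and 111 TPM in Z1 and 75.4 and 71.4 TPM in Z0 in unigene DN31862_c0_g2.

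**Figure D3:**
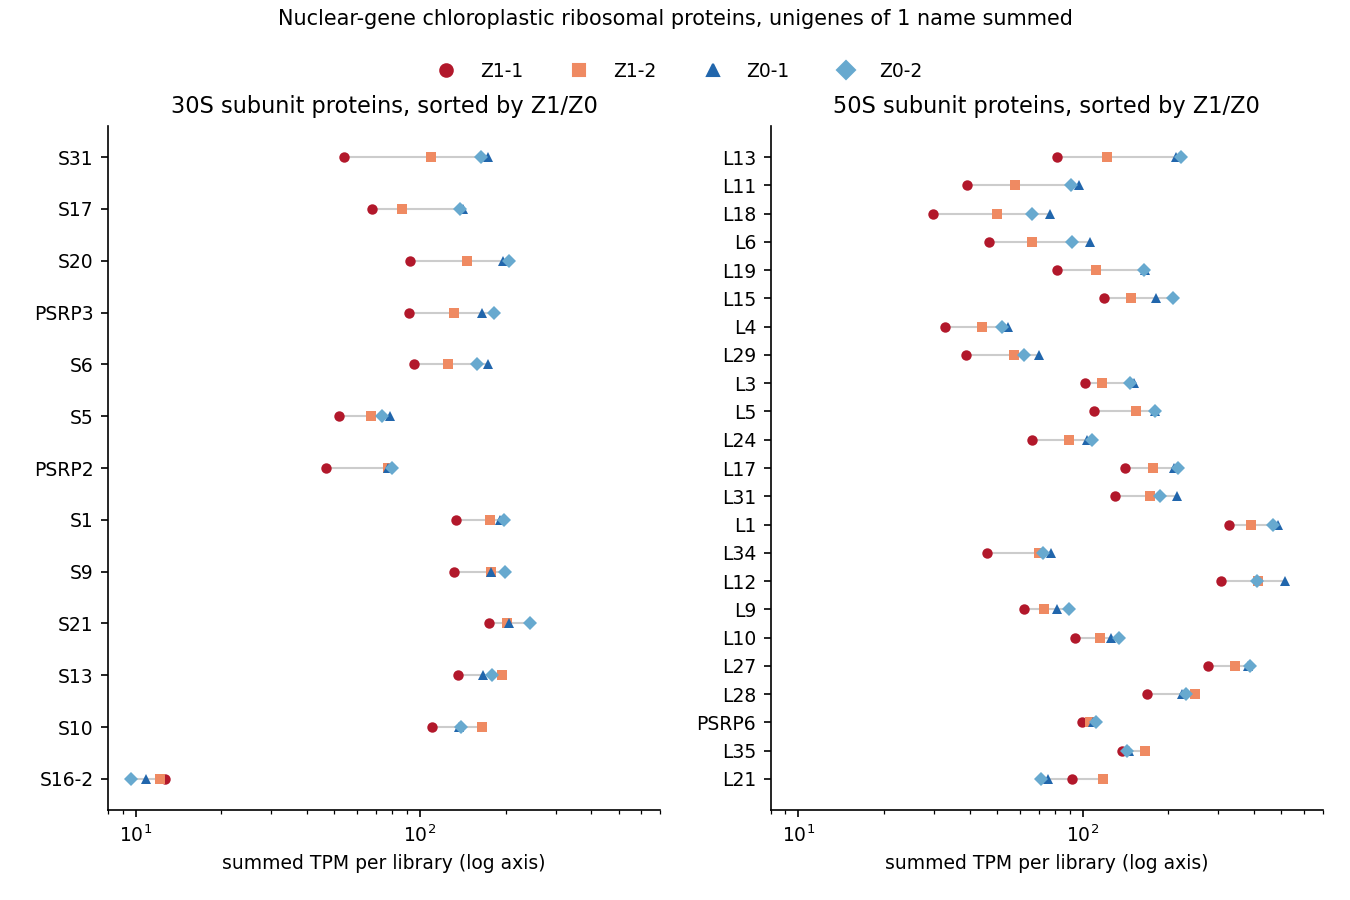
Each row is 1 of the 36 nuclear-gene chloroplastic ribosomal protein names, with the TPM of its unigenes summed and plotted for the 4 libraries on a log axis, 30S on the left and 50S on the right. In 28 rows both red Z1 markers lie left of both blue Z0 markers, and in 2 rows, S16-2 and L21, they lie to the right.

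Summing unigenes of the same name gave 36 protein names, 13 of the 30S and 23 of the 50S subunit. By name, 28 were lower in Z1 without overlap (9 of the 30S and 19 of the 50S), 2 were higher and 6 overlapped. No share of all unigenes was computed for values summed by name. The lowest ratios of Z1 over Z0 were 0.466 for L13 and 0.486 for S31, and the highest were 1.43 for L21 and 1.22 for S16-2. The L21 sum includes a grass-matched unigene with 6.39 TPM in Z1-2, and the ratio of DN31862_c0_g2 alone was 1.38. With 1 library left out the count of unigenes lower without overlap can only stay or grow, and it was 34 of 50 without Z1-1, 44 without Z1-2, 35 without Z0-1 and 36 without Z0-2, beside 23.4%, 28.6%, 26.8% and 23.6% of all unigenes.

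The only member called at the threshold was a second L27 unigene, and it was higher in Z1. DN27054_c1_g2, 830 bases long, had 17.3 and 22.8 TPM in Z1 and 1.32 and 1.95 TPM in Z0 (log2 fold change 2.99, standard error 0.28, limma adjusted p = 0.0340). It comes from the same component as the main L27 unigene, and both have their best Nr match in sesame (*Sesamum indicum*). Summed over both unigenes, L27 had 275 and 344 TPM in Z1 and 381 and 387 TPM in Z0. The call was lost with a pseudocount of 5 (limma adjusted p = 0.0694) and when any library was left out (limma adjusted p between 0.0665 and 0.260), where the log2 fold change was 2.80 to 3.18. Without Z1-2, Z0-1 or Z0-2 no unigene of the table was called.

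**Figure D4:**
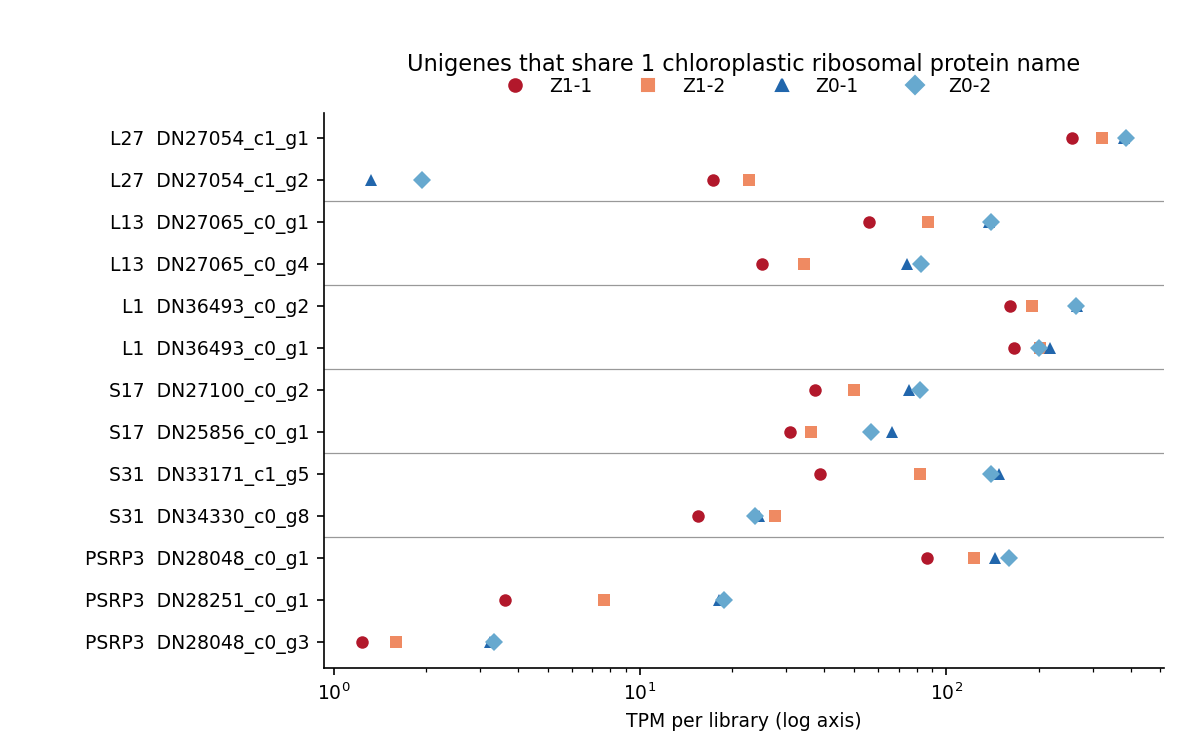
Unigenes that share a protein name are grouped for PSRP3, S31, S17, L1, L13 and L27, with the TPM of each library on a log axis. Both L13 unigenes and both S17 unigenes have their Z1 markers left of the Z0 markers, whereas the L27 unigenes part, with DN27054_c1_g1 lower in Z1 (258 and 321 TPM against 380 and 385 TPM) and DN27054_c1_g2 higher (17.3 and 22.8 TPM against 1.32 and 1.95 TPM).

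Other shared names were alike or mixed. The L1 unigene DN36493_c0_g1 overlapped, with 167 and 201 TPM in Z1 and 217 and 200 TPM in Z0, while its neighbour described above did not. The second S31 unigene, DN34330_c0_g8, had 15.5 and 27.5 TPM in Z1 and 24.4 and 23.7 TPM in Z0. All 3 PSRP3 unigenes were lower in Z1 without overlap, and the most abundant, DN28048_c0_g1, had 86.54 and 122.97 TPM in Z1 and 144.32 and 160.39 TPM in Z0. Reads that fit more than 1 such copy could not be told apart here.

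The 21 unigenes of plastid genes carried 12 gene names and low values. They summed to 106 and 157 TPM in Z1 and to 112 and 120 TPM in Z0, and 15 of them had a mean under 5 TPM. The extraction text of the labels describes poly(A) selection, which as background takes up plastid transcripts poorly. Of the 21, 8 (38.1%) were higher without overlap, 3 (14.3%) lower and 10 overlapped, close to the 41.5% and 18.2% of all unigenes. The most abundant were unigenes named for the 30S proteins S7 and S18, chosen after their values were seen. S7 had 26.0 and 38.2 TPM in Z1 and 44.2 and 46.0 TPM in Z0, lower in Z1 without overlap. S18 had 21.96 and 32.92 TPM in Z1 and 18.4 and 28.1 TPM in Z0, which overlapped. At 1963 and 2414 bases these unigenes are longer than the coding part of either gene, and plastid genes are transcribed in groups, so each value belongs to the assembled stretch.

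Some of these stretches were short or matched distant plants. Of the 21, 9 were under 300 bases. In all, 3 members had their best Nr match in a grass (S16 and L2 of the plastid and L21 of the nucleus), and they had 4.33 to 11.5 TPM in Z1-2 and at most 0.19 TPM in any other library. The 54 dropped rice-matched unigenes had the same shape, with 278 TPM in Z1-2, 0.01 TPM in Z1-1, and 5.09 and 1.98 TPM in Z0. L32 of the plastid had 8.15 and 8.24 TPM in Z1 and 4.16 and 4.20 TPM in Z0, and L16 had 4.27 and 4.95 TPM in Z1 and 2.70 and 1.92 TPM in Z0. Both, chosen after their values were seen, were higher in Z1 without overlap and were not called. A few low members were listed at 0 in both libraries of a condition. An S13 unigene with its best match in *Anthurium* was listed at 0 in Z1 and had 1.91 and 4.75 TPM in Z0, and a plastid S3 stretch of 275 bases matched to *Oxalis* was listed at 0 in Z1 and had 1.42 and 3.23 TPM in Z0. A plastid S2 stretch of 205 bases had 3.31 and 0.90 TPM in Z1 and was listed at 0 in Z0.

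The 44 ribosomal proteins not named chloroplastic had a sum of 619 and 630 TPM in Z1 and 539 and 595 TPM in Z0. As deposited, this sum was higher in Z1 without overlap. Its direction depends on the scaling, as does the median log2 fold change of the class, 0.11 as deposited and -0.25 with TMM scaling. Of the 44, 17 (38.6%) were higher without overlap, 8 (18.2%) lower and 19 overlapped, close to the shares of all unigenes (41.5% and 18.2%), and none was called. Their log2 fold changes ran between -1.46 and 1.16. S5, which lies at the entry of the message into the small subunit, had 26.57 and 22.03 TPM in Z1 and 13.16 and 11.97 TPM in Z0 (log2 fold change 0.89, standard error 0.22, limma adjusted p = 0.0841). L23, which sits at the exit of the growing protein from the large subunit, had 24.9 and 21.8 TPM in Z1 and 11.8 and 14.3 TPM in Z0 (log2 fold change 0.80, standard error 0.22, limma adjusted p = 0.105). Both are matched to bacterial entries. The chloroplastic S5 had 51.9 and 67.5 TPM in Z1 and 78.6 and 73.4 TPM in Z0, lower in Z1 without overlap.

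The 2 elongation factors differed in direction. EF-Tu, which brings charged tRNAs to the ribosome, had 353 and 372 TPM in Z1 and 292 and 283 TPM in Z0 (log2 fold change 0.33, standard error 0.19, limma adjusted p = 0.316). EF-G, which moves the ribosome along the message, had 141 and 189 TPM in Z1 and 192 and 206 TPM in Z0 (log2 fold change -0.29, standard error 0.23, limma adjusted p = 0.451). Each was without overlap and neither passed the test. With TMM scaling the log2 fold change of EF-Tu was -0.050.

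Sigma factors were found under all 6 names, sigA to sigF. The 15 unigenes summed to 470 and 579 TPM in Z1 and to 524 and 559 TPM in Z0, with 6 (40%) higher without overlap, 3 (20%) lower and 6 overlapping, close to the 41.5% and 18.2% of all unigenes. Their median log2 fold change was 0.10, beside 0.45 over all unigenes, and none was called. That median changed sign with the scaling. It was -0.20 with median-ratio scaling, -0.27 with TMM scaling and -0.16 without carlavirus and rice matches. Among sigma factors of at least 10 TPM, sigC had the highest log2 fold change. Its main unigene, DN29963_c3_g4, had 47.1 and 55.5 TPM in Z1 and 28.6 and 26.5 TPM in Z0 (log2 fold change 0.87, standard error 0.21, limma adjusted p = 0.0807). A shorter sigC unigene had 5.52 and 7.02 TPM in Z1 and 3.47 and 0.42 TPM in Z0, so that both sigC unigenes were higher in Z1 without overlap.

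SigE, called SIG5 in Arabidopsis and known there as the sigma factor that responds to blue light and stress, was spread over 6 unigenes. Their sum was 246 and 262 TPM in Z1 and 275 and 313 TPM in Z0, lower in Z1 without overlap. The most abundant, DN34040_c0_g3, had 91.0 TPM in both Z1 libraries and 103 and 119 TPM in Z0. DN36022_c0_g4 had 40.1 and 60.7 TPM in Z1 and 67.6 and 87.3 TPM in Z0, and is 487 bases long. The unigenes of sigE did not go together. DN36022_c0_g2, named after its values were seen, had 61.9 and 60.4 TPM in Z1 and 41.6 and 44.0 TPM in Z0, higher in Z1 without overlap, although it lies in the same component as DN36022_c0_g4.

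SigA, the first of the family in Arabidopsis, had 57.0 and 66.5 TPM in Z1 and 54.0 and 55.1 TPM in Z0. SigB, which in Arabidopsis drives several plastid tRNA genes, had 53.0 and 85.1 TPM in Z1 and 74.7 and 82.9 TPM in Z0 in its most abundant unigene, DN37099_c0_g1. SigA was thus higher without overlap by a small margin, with a log2 fold change of 0.17 that became -0.10 to -0.20 under the 3 rescalings, and this sigB unigene overlapped. SigD and sigF, each with 1 unigene and named after their values were seen, were lowest in Z1-1. SigD had 12.01 and 26.96 TPM in Z1 and 27.11 and 23.26 TPM in Z0, and sigF had 9.20 and 21.2 TPM in Z1 and 24.4 and 19.3 TPM in Z0.

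**Figure D5:**
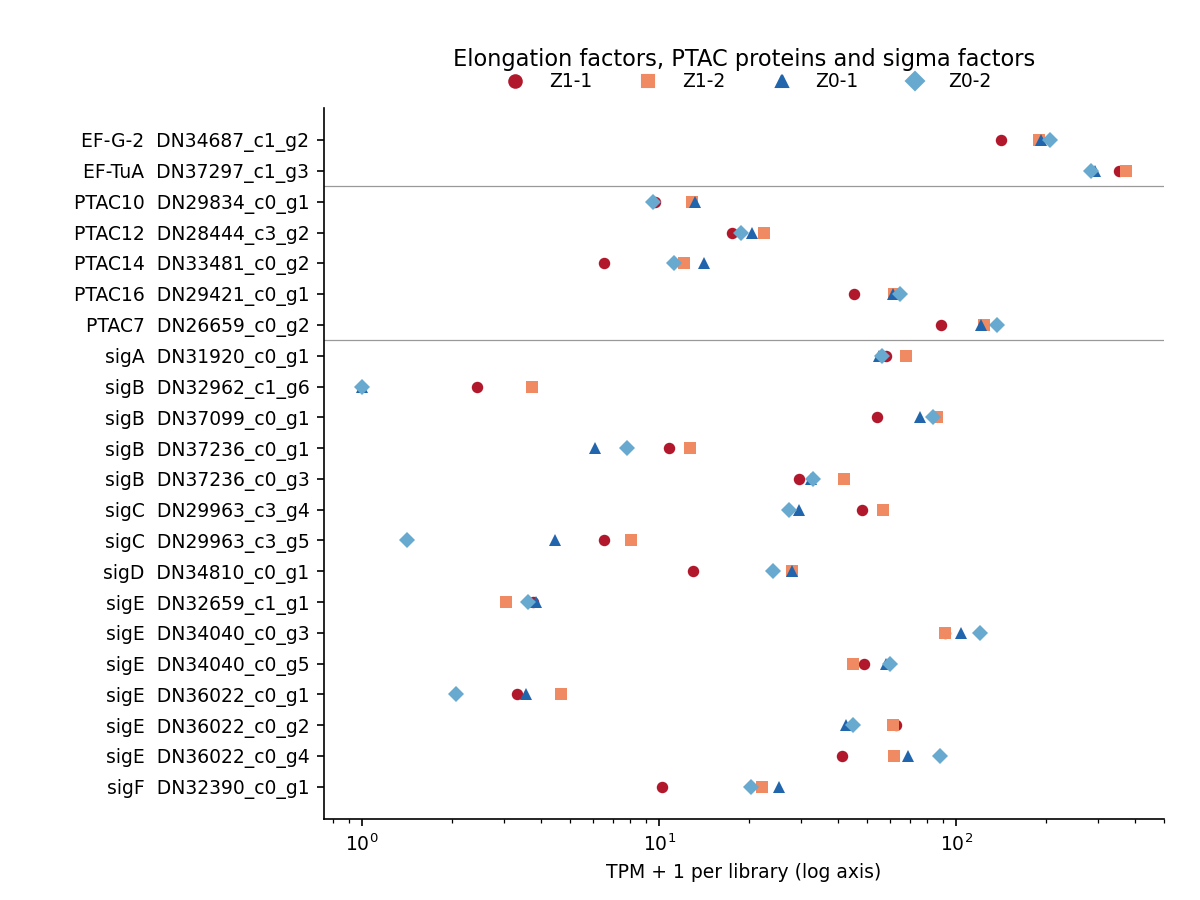
The TPM + 1 of each library is plotted on a log axis for the 2 elongation factors, the 5 PTAC proteins and the 15 sigma factor unigenes, so that 0 TPM lies at 1. Both sigC unigenes have their Z1 markers right of their Z0 markers, the PTAC rows all overlap, and the sigE rows lie on either side.

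The PTAC proteins belong to the complex around the plastid RNA polymerase or were purified with plastid DNA. As deposited, all 5 overlapped between conditions, and this overlap depends on the scaling. None was called, and Z1-1 was below Z1-2 in each. Of all 73159 unigenes, 29458 overlapped and 36741 had Z1-1 below Z1-2. PTAC7 had 87.88 and 122.69 TPM in Z1 and 120.10 and 136.75 TPM in Z0. PTAC16 had 44.4 and 60.8 TPM in Z1 and 60.4 and 63.9 TPM in Z0. PTAC12, known in Arabidopsis as HEMERA and needed for phytochrome signalling, had 16.6 and 21.5 TPM in Z1 and 19.5 and 17.8 TPM in Z0. As deposited, the values of PTAC12 were thus nearly level between conditions, and its log2 fold change was -0.35 with TMM scaling. PTAC10 had 8.67 and 11.9 TPM in Z1 and 12.3 and 8.57 TPM in Z0, and PTAC14 had 5.53 and 11.1 TPM in Z1 and 13.2 and 10.3 TPM in Z0. The log2 fold changes of the 5 lay between -0.51 for PTAC14 and 0.017 for PTAC12.

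Other genes of plastid gene expression were counted over 9 lists with 186 unigenes. Of these 2 were called higher and 2 lower, where all unigenes had 3.2% and 1.8%. Without overlap, 37 (19.9%) were higher and 55 (29.6%) lower, where all unigenes had 41.5% and 18.2%, and the median log2 fold change was -0.099, beside 0.45. The 105 chloroplastic pentatricopeptide repeat proteins, which bind and process organelle RNAs, had 39 (37.1%) lower and 16 (15.2%) higher without overlap and a median of -0.17. Most of these 105 were low, with a median of 1.79 for their mean TPM. The 13 ribonucleoproteins and splicing factors had 4 (30.8%) lower and 1 (7.69%) higher. The 5 ribosome-associated factors had 2 lower and 0 higher, and the 5 polymerase-associated proteins had 1 of each. The 36 tRNA ligases had 7 (19.4%) lower and 13 (36.1%) higher, 7 initiation factors had 1 of each, 7 release and recycling factors had 0 lower and 3 higher, and 5 ribonucleases had 1 of each. The 3 unigenes of the polymerase core summed to 8.08 and 7.73 TPM in Z1 and 6.64 and 9.70 TPM in Z0.

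The 4 calls of these lists were lost with a pseudocount of 5, where no unigene of the table was called. PSRP1, known as a factor that binds and stores idle plastid ribosomes, was lower in Z1. It had 3.69 and 5.33 TPM in Z1 and 15.7 and 22.1 TPM in Z0 (log2 fold change -1.85, standard error 0.30, limma adjusted p = 0.0480). An iron superoxide dismutase was lower too, with 31.5 and 26.3 TPM in Z1 and 163 and 155 TPM in Z0 (log2 fold change -2.43, standard error 0.20, limma adjusted p = 0.0334). Some iron superoxide dismutases of Arabidopsis belong to the polymerase complex, and the annotation does not say whether this one does. The 2 calls that were higher were leucine tRNA ligase unigenes. DN29296_c2_g3 had 4.26 and 3.22 TPM in Z1 and 0.44 and 0.21 TPM in Z0 (limma adjusted p = 0.0492), and DN7461_c0_g1, 203 bases long, had 3.40 and 5.07 TPM in Z1 and was listed at 0 in Z0 (limma adjusted p = 0.0410).

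The parts that light, the trees and the carlavirus had in these values cannot be told apart, and that of the lower level of Z1-1 was not tested. The small-chain unigenes of rubisco, products of nuclear genes imported into the plastid like the ribosomal proteins, summed to 12074 and 13466 TPM in Z1 and to 13507 and 12804 TPM in Z0, which overlapped. That overlap belongs to the TPM as deposited and depends on the scaling. Dividing by the TMM factors, 1.16 and 1.12 in Z1 and 0.833 and 0.921 in Z0, lowers the Z1 sums and raises the Z0 sums.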

How the data were processed

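RNA of leaves from Z1 and Z0 was sequenced and assembled without a genome by the authors with Trinity 2.4.0. The authors deposited TPM, which Salmon estimated, in a single table with the length and annotation of 73159 unigenes. The submitters' processing notes also list cutadapt, FastQC and edgeR, with versions not given in the sources used here. Columns were matched to conditions by name, and 0 columns of per-sample values were left unused.

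Values were taken as log2(TPM + 1). All unigenes had at least 1 TPM in 1 library. The table was fitted with limma 3.58.1 (R 4.3.3, with version 1.17.8 of data.table) with a trended prior and no covariate, and members were read from that fit. The fit was tested on values simulated with independent normal noise. These held no outlying library and no overall shift between conditions, so they do not cover such features of the data. Tables and plots used Python 3.11.15, pandas 2.3.3 and matplotlib 3.10.9. A fold change on this scale understates the change of low genes. Depth, and with it precision, is unknown for every library.

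Members, lists and tests were chosen with earlier results of these data known. Named were every called member, the 4 highest mean levels among 30S, 50S and sigma factors, all elongation factors and PTAC proteins, and the 4 highest and 4 lowest log2 fold changes without overlap and with at least 10 TPM on the higher side. Other members named were chosen after their values were seen. Alternatives tried were no filter or one at 5 TPM, pseudocounts of 0.1 and 5, median-ratio and unweighted TMM scaling, a fold threshold of 1.5, an unadjusted p, a replicate block, leaving out each library, leaving out carlavirus and rice matches, and TPM summed per component. No sequences are shown, as none of the members' sequences were used here.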

Additional observations from a re-analysis of the deposited data

Results flagged for a closer look

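The 54 unigenes with the same protein names that were dropped for a best match in rice summed to 277.84 TPM in Z1-2. They had 0.01 TPM in Z1-1 and at most 5.09 TPM in Z0, and so stood out as signal in rows that are not among the members. Of the members kept, 3 with a best match in another grass had the same shape. The part of other plant material in Z1-2 was not tested. Z1-2 also had 3310 unigenes at 0 against 8380 to 9896 in the other libraries, and r of log2(TPM + 1) across unigenes was 0.80 between the Z1 and 0.91 between the Z0 libraries. Groups of 2 libraries allow no outlier test.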

How the results depend on the processing

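The median log2 fold change of the nuclear chloroplastic ribosomal proteins (-0.41) stayed below 0 under every alternative run. It was -0.73 with median-ratio scaling, -0.79 with TMM scaling, -0.69 without carlavirus and rice matches, and -0.61 to -0.22 with 1 library left out. Their count without overlap (34 of 50) was 28 of 36 by protein name and 39, 44 and 40 under those 3 rescalings, where the share of all unigenes was 25.1%, 26.7% and 26.2% against 18.2%. The count was 34 to 44 with 1 library left out, where it cannot fall. Each of the 3 rescalings lowers Z1 values relative to Z0 values. Under them the count cannot fall either, and the median is pushed down. These alternatives were added after seeing the data. For all 137 members the median (-0.029) was -0.33, -0.40 and -0.29 under the rescalings and -0.18 to 0.036 with a library left out.

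Calls were less stable. Members called higher (1) were 0 with a pseudocount of 5, 5 with an unadjusted p, 2 without carlavirus and rice matches, 0 per component and 0 to 4 with a library left out. Members called lower (0) were 3 with a filter at 5 TPM, 1 with median-ratio scaling, 1 with TMM, 6 with an unadjusted p, 5 without carlavirus and rice matches, and 0 with any library left out. Over all unigenes, the 2344 calls higher and 1317 lower were 354 and 199 with a pseudocount of 0.1, 0 and 0 with one of 5, and 12072 and 5642 with an unadjusted p. They were 3691 and 3194 without carlavirus and rice matches, 4 and 1 per component, and 0 to 8233 and 0 to 145 with a library left out. They were 3940 and 1509 with the filter at 5 TPM. That filter left 31035 unigenes to test, and leaving out carlavirus and rice matches left 67501, against 73159 in the main fit. Summing per component gave 30459 rows, so counts under these settings have other totals. With median-ratio scaling the calls were 1552 and 1811, and with TMM 1403 and 1862, so that lower calls then outnumbered higher ones. Where a library was left out, the lone one was assumed to vary like the other condition. The cause of these changes was not tested.

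With a replicate block, 1 member was called higher and 0 lower, and 2512 and 1487 over all unigenes. Deviations of same-numbered libraries correlated at -0.087, so the numbers were not taken to pair them.

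For the 27 named members, 298 of 324 values under alternatives kept direction and side of the threshold, 5 lost the call, 7 gained it and 14 changed sign. None of these 14 was called. With 1 library left out the log2 fold changes ran between -0.43 and 0.13 for L28, -0.32 and 0.19 for S13, -0.56 and 0.11 for sigB (each above 0 without Z1-1 only), and -0.25 and 0.22 for PTAC10 (0.20 without Z1-1, 0.22 without Z0-1). PTAC12 had -0.28 with median-ratio scaling, -0.35 with TMM, -0.24 without carlavirus and rice matches, -0.16 without Z1-2 and -0.045 without Z0-2. SigA had -0.14, -0.20 and -0.10 under the same 3 rescalings, and EF-Tu -0.050 with TMM. TPM hold no counts, so what depth limits is unknown.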
